A study of Oryza sativa Japonica Group with 3 samples.

Results

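The genes described here encode proteins that change chromatin: enzymes that add methyl groups to DNA, enzymes that add acetyl groups to histones or take them off, proteins that bind acetylated or methylated histones, and ATP-driven remodellers of nucleosomes. They were chosen by the words of the gene description in the deposited table, which had to name an SNF2 or SWI/SNF protein, a chromatin remodelling protein, a SWIRM domain, a bromodomain, a chromodomain, a histone deacetylase, a histone acetyltransferase or a DNA methyltransferase, and not a SET or jumonji domain. By this rule 61 of 35664 genes were members, and 0 genes were lost through the second condition. The rule used no expression value, but it was chosen with earlier results of these data known. The members fell into 3 DNA methyltransferases, 16 histone deacetylases, 3 histone acetyltransferases, 19 SNF2 ATPases and remodellers, 1 SWIRM protein, 17 bromodomain proteins and 2 chromodomain proteins. A gene whose description fitted several classes was placed in the first of them in this order. Words were matched as spelled, so a hyphenated spelling of chromatin remodelling did not count for the remodeller class.

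RNA sequencing was carried out on the terminal 1 cm of roots of rice seedlings (Oryza sativa Japonica, cultivar Nipponbare) at an age of 7 days, in 2 RNA pools with 4 libraries each. The poly(A) pool was captured with oligo(dT) from roots of the p35S:HF-FLAG-OsRPL18 line, which carries a tagged ribosomal protein, and grown at MS salt strength 1. The nuclear pool was RNA of nuclei captured on streptavidin from roots of the p35S:OsNTF2 line, which carries a nuclear tag, grown at strength 0.5 per the labels (the series' design text gives strength 1 for all), with ribosomal RNA degraded afterwards. RNA pool, plant line, RNA selection and medium strength changed together between the groups and cannot be told apart. The 35S promoter, which is active in most plant cells, drives the transgene in both lines. In bulk samples fewer cells of a type and less RNA per cell cannot be told apart. A further sample, nuclei of the shoot base from a pOSH1:OsNTF1 line, was not analysed here.

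Nuclear DNA is wound around histone octamers, and the tightness of that packing is set in part by acetylation of lysines on the histone tails. Acetyltransferases place this mark, deacetylases remove it, and bromodomains bind it. SNF2-family ATPases slide, evict or exchange histones with the energy of ATP, and DNA methyltransferases mark cytosines, which in plants keeps transposons and repeats silent.

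All levels below are RPKM, reads per kilobase of gene scaled to the reads of the library, and a mean is followed by its SD over the 4 libraries of a pool. A log2 difference is nuclear minus poly(A) on the log2(RPKM + 1) scale with its standard error, which understates the change of genes with low levels. Calls of higher or lower in nuclear RNA rest on limma with an adjusted p below 0.05 (Benjamini-Hochberg), over all 26928 genes that reached a mean of 1 RPKM in either pool. Depth, as reads on the genes of the table, ran from 19413069 to 29946296 in poly(A) RNA and from 1072821 to 2288323 in nuclear RNA. A single read on 1 kb of gene therefore equals 0.0333 to 0.0514 RPKM in the deeper pool but 0.436 to 0.93 RPKM in the shallower. The root genes LSI1 and LSI2 (silicon transporters), SHR1 and SCR1 were above 0 in all 8 libraries, and the shoot meristem gene OSH1 was at 0 in all. Poly(A) and nuclear ranges were 179.8 to 235 and 50.9 to 86.5 RPKM for LSI1, 78.7 to 95.2 and 91.1 to 178.5 RPKM for LSI2, 6.56 to 7.51 and 25.8 to 43.4 RPKM for SHR1, and 2.43 to 3.05 and 11.5 to 16.2 RPKM for SCR1. The 18 genes for chlorophyll-binding proteins and the Rubisco small chain, 4 of them at 0 in all libraries, summed to 17.5 to 29.9 RPKM in poly(A) and 39.2 to 63.8 RPKM in nuclear libraries, and their part in the results was not tested.

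Of the 61 members, 53 passed the filter on low levels, 50 of them through both pools, 1 through the poly(A) pool alone (OS01G0648700) and 2 through the nuclear pool alone (OS08G0243866 and OS05G0203912). Of the 53 tested members, 20 (37.7%) were higher and 15 (28.3%) lower in nuclear RNA, against a background of 33.1% higher and 30.0% lower (63.0% together) among all tested genes, and 18 were not called. Rescaled to an equal sum of RPKM per library the split was 24 higher and 11 lower, and 24 and 10 without the 100 highest genes in that sum, where the median log2 difference of all tested genes went from 0.08 to 0.29 and 0.32. The shares over all tested genes moved the same way, to 38.3% higher and 24.2% lower, and to 39.2% and 23.5%. Both shares of the main comparison lie near the background, so the count over the whole list is not a result about these genes. In 21 members all nuclear libraries lay above all poly(A) libraries and in 15 all lay below, where the background is 31.7% and 29.4%, or 61.1% together. The median log2 difference of the members was 0.26, against 0.08 for all tested genes. Relative to the all-gene median it stood at 0.18, from −0.00 to 0.27 over the scalings tried, and it lost its positive sign under quantile normalization. Single members ranged from −2.71 to 3.65. Summed over the 61 members, the poly(A) level was 657.8 ± 13.1 RPKM and the nuclear level 837.9 ± 6.69 RPKM, a ratio of 1.27. This ratio depends most on the highest genes, was taken without rescaling and has no all-gene ratio beside it.

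**Figure D1:**
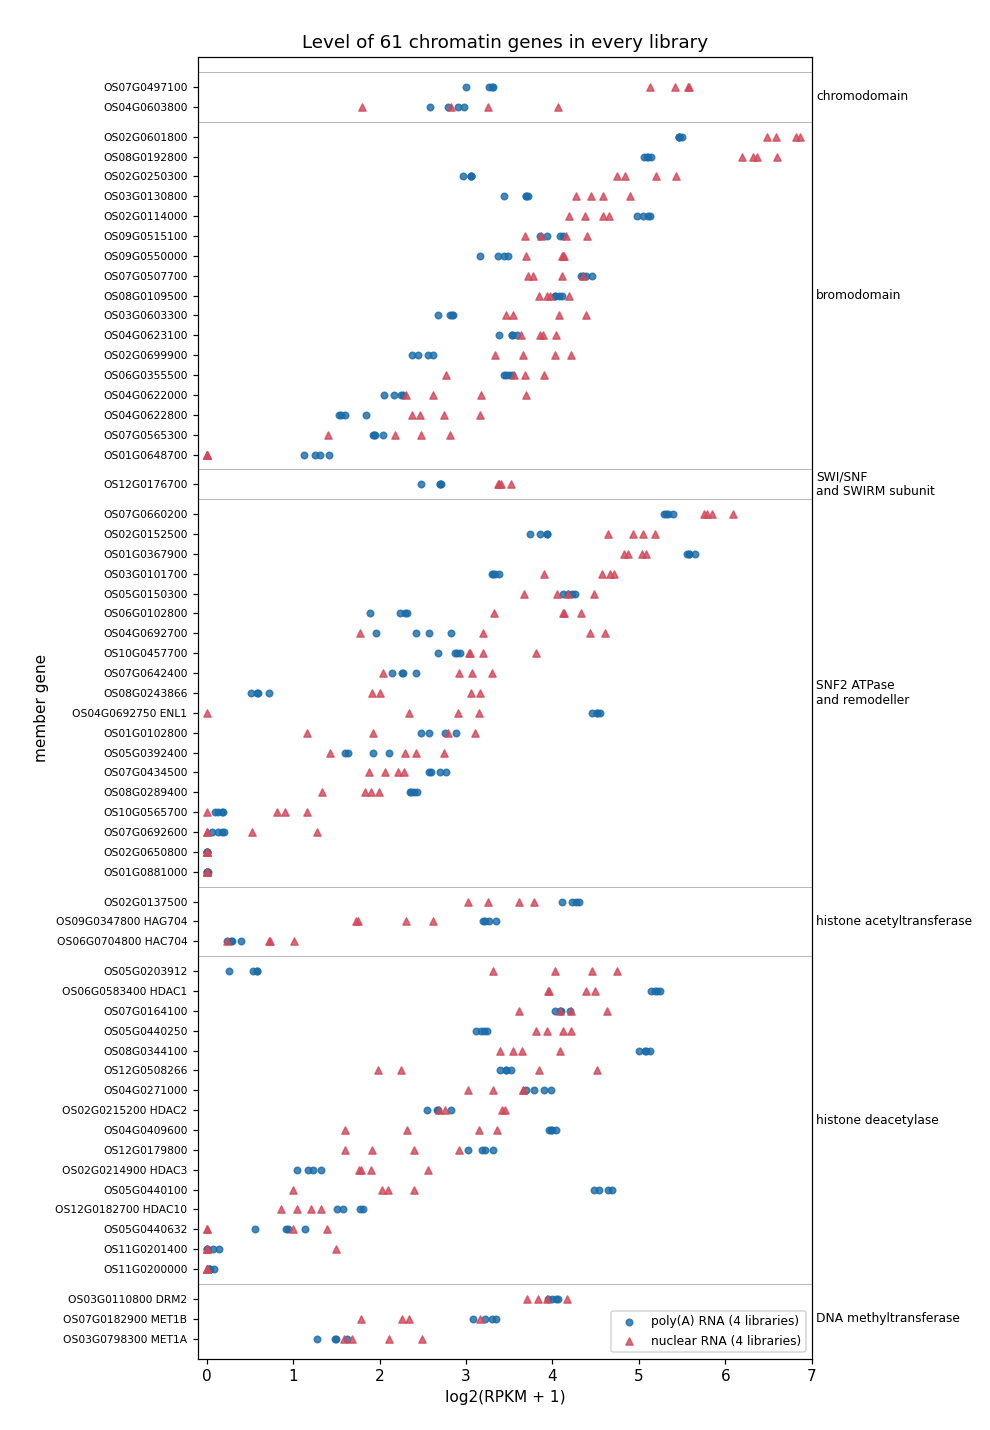
Level of each of the 61 members in every library, as log2(RPKM + 1) on the horizontal axis, grouped by class on the vertical axis; circles are the 4 poly(A) libraries and triangles the 4 nuclear libraries. Nuclear points are spread more widely than poly(A) points for most genes, and OS05G0203912 and OS05G0440100 show the widest separations to the right and to the left.

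The class counts are given beside the 33.1% higher and 30.0% lower of all tested genes. Of 17 bromodomain genes, 10 (58.8%) were called higher and 2 (11.8%) lower in nuclear RNA, with a median log2 difference of 0.66. Of 13 tested deacetylases, 6 (46.2%) were lower and 3 (23.1%) higher, with a median of −0.43, and both tested acetyltransferases were lower, with a median of −0.98. Of 15 tested SNF2 ATPases and remodellers, 5 (33.3%) were higher and 4 (26.7%) lower, shares near the background, with a median of 0.43. After either rescaling the SNF2 split was 7 higher and 2 lower, where the shares over all genes shifted as given above. The bromodomain split was 8 higher and 3 lower with median centring (28.9% and 34.1% over all genes), and the deacetylase split 4 higher and 5 lower after rescaling without the 100 highest genes. The medians of these 4 classes kept their sign under every scaling tried. Relative to all genes they stood between 0.50 and 0.61 for bromodomain genes, −1.28 and −1.04 for acetyltransferases, −0.59 and −0.47 for deacetylases and 0.24 and 0.38 for SNF2 genes. The higher deacetylases include OS05G0203912 and the higher SNF2 genes OS08G0243866, which passed the filter through the nuclear pool alone. The lower bromodomain genes include OS01G0648700, which passed through the poly(A) pool alone. Each of these 3 entered the test only through the pool where it was high. The remodeller class leaves out OS07G0497100, a CHD protein counted with the chromodomain genes. No difference between classes was tested.

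**Figure D2:**
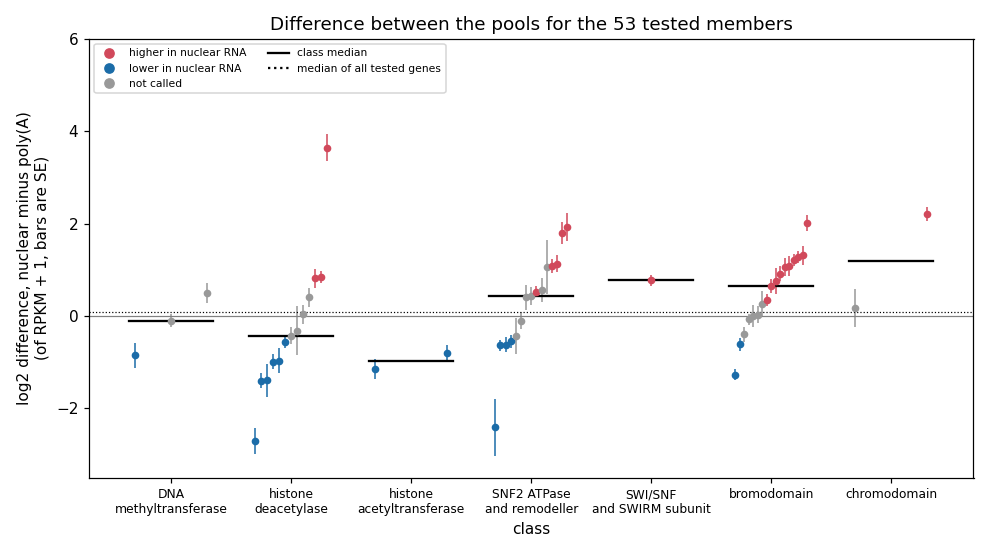
Log2 difference, nuclear minus poly(A), of log2(RPKM + 1) for the 53 tested members, grouped by class along the horizontal axis; bars are standard errors, thick lines class medians and the dotted line the median of all tested genes. Of 17 bromodomain genes 10 (58.8%) are higher and 2 (11.8%) lower, and of 13 deacetylase genes 3 (23.1%) are higher and 6 (46.2%) lower. Among all tested genes 33.1% are higher and 30.0% lower. These counts change with the scaling, while no scaling tried turns the sign of these 2 medians.

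**Figure D3:**
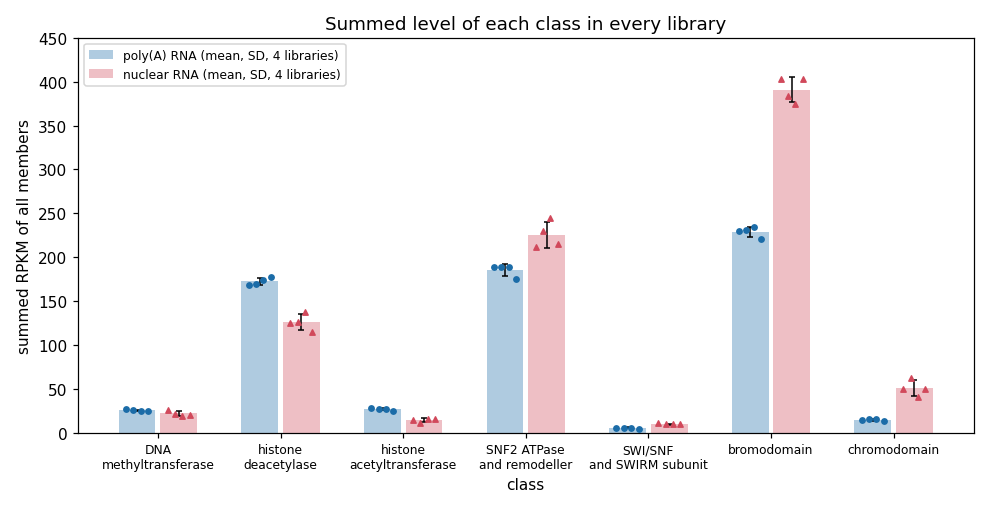
Summed RPKM of all members of each class on the vertical axis; bars are the mean of 4 libraries with the SD, and points are single libraries. The bromodomain sum is 228.9 ± 6.0 RPKM in poly(A) and 390.8 ± 14.3 RPKM in nuclear RNA, and the deacetylase sum is 172.3 ± 4.26 and 125.9 ± 9.25 RPKM.

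Taken as sums, poly(A) and nuclear libraries were fully separated for deacetylases, acetyltransferases, SNF2 genes, the SWIRM gene, bromodomain and chromodomain genes, as the plot of summed levels by class shows. Deacetylases summed to 167.9, 169.7, 174.4 and 177.2 RPKM in poly(A) libraries 1 to 4 and to 124.7, 126.1, 137.6 and 115.1 RPKM in nuclear libraries 1 to 4, a ratio of means of 0.731. Bromodomain genes summed to 220.3 to 234.3 RPKM in poly(A) and 374.4 to 402.8 RPKM in nuclear libraries, a ratio of 1.71. A sum weighs the highest genes most. In this class OS02G0601800 rose from a mean of 43.3 to 102.8 RPKM and OS08G0192800 from 33.2 to 82.1 RPKM. The class sums were taken without rescaling, and no share over all genes stands beside them. The sum of the SNF2 class was 174.5 to 188.8 against 211.9 to 244.4 RPKM, a ratio of 1.22, and that of the acetyltransferases 24.8 to 27.6 against 10.5 to 15.8 RPKM, a ratio of 0.527. The 3 DNA methyltransferases overlapped, at 24.7 to 26.5 RPKM in poly(A) and 19.1 to 25.8 RPKM in nuclear libraries.

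The DNA methyltransferases comprised MET1A and MET1B, which copy CG methylation onto the new strand after replication, and DRM2, which in plants places methylation on unmethylated sites guided by small RNAs. MET1B was the only one of the 3 that was called, and it was lower in nuclear RNA, while the class median of −0.10 turned to 0.14 and 0.18 when libraries were rescaled to equal sums. MET1B (OS07G0182900) was at 8.84, 8.33, 7.43 and 9.16 RPKM in poly(A) libraries 1 to 4 and at 7.94, 2.44, 3.79 and 4.06 RPKM in nuclear libraries 1 to 4. Nuclear library 1 lay within the poly(A) range and the other 3 below it, over 42 nuclear reads in all. The log2 difference was −0.85 ± 0.27 (adjusted p = 0.0222) and missed the threshold without poly(A) library 1 (adjusted p = 0.0548) or 4 (adjusted p = 0.0579). Its paralogue MET1A (OS03G0798300) was at 1.83, 2.08, 1.79 and 1.43 RPKM in poly(A) and 4.61, 2.21, 3.30 and 2.02 RPKM in nuclear libraries. It lay on the higher side in nuclear RNA with overlapping libraries and was not called (log2 difference 0.49 ± 0.21, adjusted p = 0.0706), although rescaling to equal sums called it higher (0.67, adjusted p = 0.0243) and no longer called MET1B. MET1B stood above MET1A in each of the 8 libraries, on recovered gene lengths of 1605 nt for MET1B and 1384 nt for MET1A. Whether these lengths span the whole genes was not examined. DRM2 (OS03G0110800) was the most abundant of the 3 in both pools, at 15.8, 14.9, 15.4 and 14.4 RPKM in poly(A) and 13.3, 16.9, 12.1 and 14.3 RPKM in nuclear libraries, with overlapping ranges and a log2 difference of −0.10 ± 0.14 (adjusted p = 0.531).

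The histone acetyltransferases were HAG704, annotated as the catalytic subunit of a type B enzyme, a class known from yeast and animals to acetylate newly made histones, an acetyltransferase-like gene with no symbol (OS02G0137500), and HAC704, a member of the HAC family related to the animal CBP and p300 coactivators. Both tested genes were lower in nuclear RNA. HAG704 (OS09G0347800) was at 9.17, 8.16, 8.60 and 8.32 RPKM in poly(A) and 5.15, 2.38, 2.31 and 3.94 RPKM in nuclear libraries. Every nuclear library lay below every poly(A) library, with a log2 difference of −1.15 ± 0.21 (adjusted p = 0.00156) over 33 nuclear reads. OS02G0137500 was at 18.3, 18.8, 17.8 and 16.2 RPKM in poly(A) and 8.55, 7.14, 12.8 and 11.2 RPKM in nuclear libraries (log2 difference −0.81 ± 0.18, adjusted p = 0.00452). It shares its locus of the older MSU annotation with OS02G0137450, a conserved hypothetical gene. Whether such genes overlap was not examined, and if they do, their reads cannot be told apart. HAC704 (OS06G0704800) did not reach the filter, at 0.177, 0.214, 0.315 and 0.225 RPKM in poly(A) and 0.656, 1.01, 0.176 and 0.646 RPKM in nuclear libraries, or 108 and 18 reads.

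The 16 histone deacetylases include zinc-dependent enzymes of the RPD3/HDA1 superfamily and NAD+-dependent sirtuins. Of 13 tested, 6 were lower and 3 higher in nuclear RNA. The largest fall was that of OS05G0440100, annotated as similar to the deacetylase superfamily, at 22.2, 21.4, 23.9 and 24.9 RPKM in poly(A) and 0.995, 3.06, 4.28 and 3.27 RPKM in nuclear libraries. No nuclear library came near the poly(A) range, and the log2 difference was −2.71 ± 0.28 (adjusted p = 5.23e-05), over 3535 poly(A) and 25 nuclear reads. OS08G0344100 fell from 31.01, 33.9, 32.7 and 32.8 RPKM in poly(A) to 9.53, 11.5, 10.7 and 16.02 RPKM in nuclear libraries (log2 difference −1.40 ± 0.17, adjusted p = 0.000114). HDAC1 (OS06G0583400), a class I enzyme annotated with a role in root growth of seedlings, was the most abundant deacetylase in poly(A) RNA. Its levels were 35.9, 36.8, 35.5 and 34.2 RPKM in poly(A) and 14.5, 14.6, 21.6 and 19.9 RPKM in nuclear libraries. All nuclear values were lower than all poly(A) values, and the log2 difference was −0.99 ± 0.16 (adjusted p = 0.000703) over 329 nuclear reads. OS04G0409600, at 14.5, 14.8, 15.5 and 14.97 RPKM in poly(A) libraries, was more variable among nuclear libraries, at 7.85, 2.04, 3.997 and 9.23 RPKM (log2 difference −1.39 ± 0.36, adjusted p = 0.00849).

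Among the sirtuin-type genes, OS12G0179800, with a Sir2 domain, fell from 8.11, 7.13, 8.29 and 8.92 RPKM in poly(A) to 2.04, 2.76, 6.57 and 4.28 RPKM in nuclear libraries, a log2 difference of −0.98 ± 0.27 (adjusted p = 0.0124). OS04G0271000, an NAD+-dependent deacetylase annotated with a role in seed development, lay below its poly(A) range in all nuclear libraries, from 7.14 to 11.7 against 11.9 to 14.8 RPKM, but was not called (log2 difference −0.43 ± 0.18, adjusted p = 0.062). HDAC10 (OS12G0182700), annotated to the deacetylase superfamily, was at 1.84, 1.98, 2.50 and 2.42 RPKM in poly(A) and 0.814, 1.50, 1.31 and 1.07 RPKM in nuclear libraries. Its ranges did not overlap (log2 difference −0.56 ± 0.15, adjusted p = 0.0109), but only 13 nuclear reads stood behind it, and the call was lost with voom on recovered reads and after rescaling without the 100 highest genes.

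The 3 deacetylase genes that rose were led by OS05G0203912, annotated as similar to histone deacetylase, which had the largest rise of all members. This gene passed the filter through the nuclear pool alone, where it was high. It was at 0.447, 0.492, 0.501 and 0.200 RPKM in poly(A) and 21.03, 25.9, 15.3 and 8.91 RPKM in nuclear libraries, or 45 and 124 reads despite the lower nuclear depth. The groups were far apart, with a log2 difference of 3.65 ± 0.29 (adjusted p = 1.22e-05), a 12.5-fold ratio of levels after adding 1 RPKM. It was also the most abundant deacetylase gene in nuclear RNA, at a mean of 17.8 ± 7.33 RPKM next to 17.6 ± 3.65 RPKM for HDAC1, a pair that did not differ beyond the spread of either. OS05G0440250 rose from 8.46, 8.22, 7.65 and 8.02 RPKM in poly(A) to 13.1, 14.3, 16.5 and 17.6 RPKM in nuclear libraries (log2 difference 0.84 ± 0.13, adjusted p = 0.000629). HDAC3 (OS02G0214900), a class I enzyme annotated with roles in reproduction and seed shape, was at 1.35, 1.06, 1.26 and 1.49 RPKM in poly(A) and 2.74, 2.44, 4.91 and 2.40 RPKM in nuclear libraries. Nuclear library 3 stood above the other nuclear libraries, and all 4 lay above the poly(A) range (log2 difference 0.81 ± 0.20, adjusted p = 0.00663). HDAC2 (OS02G0215200), the class I gene of the neighbouring identifier, was at 4.83, 5.37, 5.33 and 6.11 RPKM in poly(A) and 5.76, 9.65, 9.97 and 5.46 RPKM in nuclear libraries, overlapped and was not called (log2 difference 0.40 ± 0.21, adjusted p = 0.123). The class I enzymes therefore included HDAC1 among the genes that fell and HDAC3 among those that rose.

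Of the remaining tested deacetylases, OS07G0164100 differed by 0.03 ± 0.21 on the log2 scale. OS12G0508266 spanned 2.94 to 21.9 RPKM among nuclear libraries, against 9.54 to 10.5 RPKM in poly(A) libraries, so no direction could be given (log2 difference −0.32 ± 0.53, adjusted p = 0.621). The 3 deacetylases below the filter were OS05G0440632, with 42 poly(A) and 2 nuclear reads and a ratio of nuclear to poly(A) level of 0.835 (exact binomial 95% interval 0.0979 to 3.21, counting error only), OS11G0200000, with 6 and 0 reads, and OS11G0201400, with 4 and 4 reads.

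Bromodomain proteins read acetylated histones and are found in transcriptional coactivators, in remodelling complexes and in the BET family. The 10 that were called higher of 17 (58.8%) stand beside 33.1% of all tested genes. Members of this class were taken by the word in the description, and whether each binds acetylated histones was not examined. Among the higher genes, OS03G0603300 is described only as bromodomain associated and OS02G0699900 as a bromodomain transcription factor. OS02G0250300 rose most, from 7.32, 7.34, 7.30 and 6.79 RPKM in poly(A) to 35.6, 27.7, 25.8 and 42.1 RPKM in nuclear libraries. The lowest nuclear value was more than 3 times the highest poly(A) value, and the log2 difference was 2.02 ± 0.17 (adjusted p = 1.69e-05). OS08G0192800 was at 33.1, 32.3, 34.3 and 33.3 RPKM in poly(A) and 95.5, 81.6, 78.7 and 72.4 RPKM in nuclear libraries (log2 difference 1.27 ± 0.13, adjusted p = 4.31e-05). OS02G0601800, the member with the highest nuclear level, was at 44.2, 42.97, 43.1 and 43.1 RPKM in poly(A) and 94.9, 88.6, 111.8 and 115.8 RPKM in nuclear libraries (log2 difference 1.22 ± 0.13, adjusted p = 6.58e-05). These 2 genes rested on 963 and 2112 nuclear reads and had CVs of 2.46% and 1.31% between poly(A) libraries. OS02G0699900, annotated as a bromodomain transcription factor, rose from 4.42, 4.89, 5.14 and 4.20 RPKM in poly(A) to 11.7, 17.6, 9.06 and 15.3 RPKM in nuclear libraries (log2 difference 1.31 ± 0.20, adjusted p = 0.000534), and shares its MSU locus with the hypothetical gene OS02G0699824.

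The other 6 higher bromodomain genes had log2 differences from 0.35 to 1.07. They were OS03G0603300 (1.07 ± 0.22), OS04G0622800 (1.06 ± 0.19), OS03G0130800 (0.91 ± 0.16), OS04G0622000 (0.76 ± 0.28), OS09G0550000 (0.66 ± 0.15) and OS04G0623100 (0.35 ± 0.13). The calls of OS04G0622000 (adjusted p = 0.0416) and OS04G0623100 (adjusted p = 0.0471) lay close to the threshold and were lost under 10 and 13 of 19 alternatives, among them leaving out any 1 poly(A) library, with adjusted p from 0.0733 to 0.0968 and from 0.0805 to 0.128. The call of OS04G0622000 was lost as well without nuclear library 1 or 4, where the difference was 0.69 and 0.52. That of OS04G0623100 was lost without nuclear library 1, 2 or 3, at 0.29, 0.35 and 0.34.

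On the other side, OS01G0648700 passed the filter through the poly(A) pool alone. It was at 1.39, 1.48, 1.67 and 1.18 RPKM in poly(A) libraries and at 0 in all 4 nuclear libraries. With 175 poly(A) reads and none in nuclear RNA, and with nuclear RNA set at 3 reads over its 4 libraries, it was at least 3.33-fold lower there (log2 difference −1.28 ± 0.12, adjusted p = 2.64e-05, which depends on the pseudocount). OS02G0114000 was the other lower bromodomain gene, at 33.5, 34.1, 31.9 and 30.4 RPKM in poly(A) and 23.02, 24.1, 19.8 and 17.3 RPKM in nuclear libraries (log2 difference −0.61 ± 0.14, adjusted p = 0.0049). It shares its MSU locus with OS02G0114033, a gene described by a QLQ domain. The 5 bromodomain genes not called, OS07G0507700, OS08G0109500, OS06G0355500, OS09G0515100 and OS07G0565300, had log2 differences from −0.39 to 0.26 with overlapping libraries.

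Chromodomains bind methylated histone tails. OS07G0497100 encodes a CHD protein of the Mi-2 type, in which chromodomains and an SNF2-type helicase are joined. Its description also calls it a chromatin-remodeling factor, but the hyphen kept it from matching the remodeller class. It was therefore placed here by the word chromodomain, and the count, sum and median of the remodeller class leave it out. Its recovered length was 1326 nt, and whether that spans the whole gene was not examined. It is annotated with roles in crown root development and in maintaining a histone methylation mark. It was at 8.90, 8.64, 8.89 and 6.97 RPKM in poly(A) and 41.6, 46.4, 33.9 and 46.99 RPKM in nuclear libraries. Every nuclear library exceeded the highest poly(A) library more than 3-fold, and the log2 difference of 2.20 ± 0.15 (adjusted p = 5.93e-06) had the lowest adjusted p of all members. OS04G0603800, with a chromodomain and no further annotation, was at 4.98, 6.86, 6.52 and 5.94 RPKM in poly(A) and 8.51, 15.7, 6.09 and 2.48 RPKM in nuclear libraries. Its nuclear libraries lay on both sides of the poly(A) range and the difference was not called (log2 difference 0.17 ± 0.42, adjusted p = 0.737).

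The 19 SNF2 ATPases and remodellers were divided. The highest member in poly(A) RNA was OS01G0367900, similar to SNF2L1, the animal ISWI-type ATPase that spaces nucleosomes, at 49.1, 46.7, 46.9 and 46.1 RPKM in poly(A) and 31.7, 32.9, 28.4 and 27.3 RPKM in nuclear libraries. All nuclear libraries were lower (log2 difference −0.64 ± 0.12, adjusted p = 0.00163). Its closest relative by annotation, OS05G0150300, also similar to SNF2L1, was at 17.7, 16.5, 18.2 and 17.1 RPKM in poly(A) and 11.7, 15.6, 17.1 and 21.4 RPKM in nuclear libraries, overlapped and was not called (log2 difference −0.10 ± 0.18, adjusted p = 0.64). ENL1 (OS04G0692750), an SNF2 helicase annotated with a role in the syncytial endosperm, fell most in the class, from 21.9, 22.5, 21.8 and 20.9 RPKM in poly(A) to 4.08, 6.53, 7.89 and 0 RPKM in nuclear libraries, over 27 nuclear reads. The log2 difference was −2.41 ± 0.62 (adjusted p = 0.00859), and −1.71 (adjusted p = 0.000168) without nuclear library 4, in which the gene had no reads. The recovered length of ENL1 was 868 nt, and whether that spans the whole gene was not examined. OS07G0434500, similar to a remodelling complex subunit, was at 4.97, 5.47, 5.84 and 5.02 RPKM in poly(A) and 2.66, 3.64, 3.18 and 3.88 RPKM in nuclear libraries (log2 difference −0.55 ± 0.14, adjusted p = 0.00742). OS08G0289400, with an SNF2-related domain, was at 4.29, 4.17, 4.41 and 4.11 RPKM in poly(A) and 2.55, 2.99, 2.74 and 1.52 RPKM in nuclear libraries (log2 difference −0.63 ± 0.16, adjusted p = 0.0096). The calls of these last 2 genes were lost when libraries were rescaled to equal sums.

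Of the SNF2 and remodeller genes that rose, OS06G0102800, with an SNF2-related domain, was at 3.72, 3.98, 3.90 and 2.72 RPKM in poly(A) and 19.2, 16.4, 16.6 and 9.004 RPKM in nuclear libraries (log2 difference 1.79 ± 0.23, adjusted p = 0.000191). It shares its MSU locus with the hypothetical gene OS06G0102900. OS02G0152500, which the table describes as a remodelling factor with PHD, FNIII and VID domains that promotes flowering, and for which it names no ATPase domain, was at 13.4, 14.3, 14.3 and 12.4 RPKM in poly(A) and 24.03, 32.1, 35.4 and 29.5 RPKM in nuclear libraries (log2 difference 1.09 ± 0.15, adjusted p = 0.000267). OS08G0243866, similar to a remodelling complex subunit, rose from 0.642, 0.508, 0.431 and 0.498 RPKM in poly(A) to 7.35, 7.97, 3.01 and 2.76 RPKM in nuclear libraries (log2 difference 1.93 ± 0.30, adjusted p = 0.000601), and passed the filter through the nuclear pool alone. OS03G0101700, similar to SNF2P, was at 9.13, 8.91, 9.40 and 8.83 RPKM in poly(A) and 24.4, 22.7, 25.3 and 13.97 RPKM in nuclear libraries (log2 difference 1.13 ± 0.19, adjusted p = 0.000933). For each of these 4 genes the nuclear libraries lay above the poly(A) libraries without overlap. OS07G0660200, the highest of the class in nuclear RNA, was at 39.6, 38.9, 41.2 and 38.1 RPKM in poly(A) and 56.5, 54.03, 52.9 and 66.9 RPKM in nuclear libraries (log2 difference 0.53 ± 0.13, adjusted p = 0.00576), a call lost when the trend of differences with gene length was taken off.

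The 6 SNF2 and remodeller genes not called had log2 differences from −0.43 to 1.05, among them OS10G0457700, whose nuclear libraries all lay above the poly(A) range (log2 difference 0.43 ± 0.19, adjusted p = 0.0797). Below the filter were OS02G0650800, at 0 in all libraries, OS01G0881000, with 1 read in all, OS07G0692600, with 18 poly(A) and 4 nuclear reads, and OS10G0565700, with 36 and 13. The SWIRM gene OS12G0176700 carries the domain found in the SWI3 subunits of SWI/SNF complexes. It was at 5.54, 5.52, 5.51 and 4.56 RPKM in poly(A) and 10.5, 9.39, 9.61 and 9.33 RPKM in nuclear libraries, with a nuclear CV of 5.69%, and rose by a log2 difference of 0.77 ± 0.12 (adjusted p = 0.000575).

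Some members have identifiers close in number on the same chromosome, and such neighbours did not always move together. With coordinates not analysed, other genes may lie between the members of such a group. These groups were chosen after the values were seen and are given as a description. OS05G0440100 and OS05G0440250, both deacetylase genes, changed places: of the summed RPKM of the 3 members there, the former held 70.3 to 73.7% in the poly(A) pool but 6.35 to 20.6% in the nuclear pool, and the latter 23.5 to 27.4% and 77.8 to 84.3%. ENL1 held 78.6 to 87.8% of the RPKM it shared with its neighbour OS04G0692700, an ENL1-like gene, in the poly(A) pool but 0 to 62.9% in the nuclear pool. OS04G0692700 itself was at 4.36, 6.12, 4.92 and 2.90 RPKM in poly(A) and 2.41, 8.16, 23.3 and 20.6 RPKM in nuclear libraries, with a wide nuclear spread (log2 difference 1.05 ± 0.58, adjusted p = 0.146). Recovered lengths were 868 nt for ENL1 and 588 nt for OS04G0692700, and whether they span the whole genes was not examined. By contrast the 3 bromodomain genes OS04G0622000, OS04G0622800 and OS04G0623100 all lay on the nuclear side. HDAC2 held 78.2 to 83.5% of the RPKM it shared with HDAC3 in the poly(A) pool and 67 to 79.8% in the nuclear pool. It was the larger part in all 8 libraries, but nuclear libraries 1, 3 and 4 (67.8, 67 and 69.5%) lay below the poly(A) range. No source used here gives the strand setting or the handling of shared reads, so reads of similar or overlapping neighbours cannot be told apart.

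**Figure D4:**
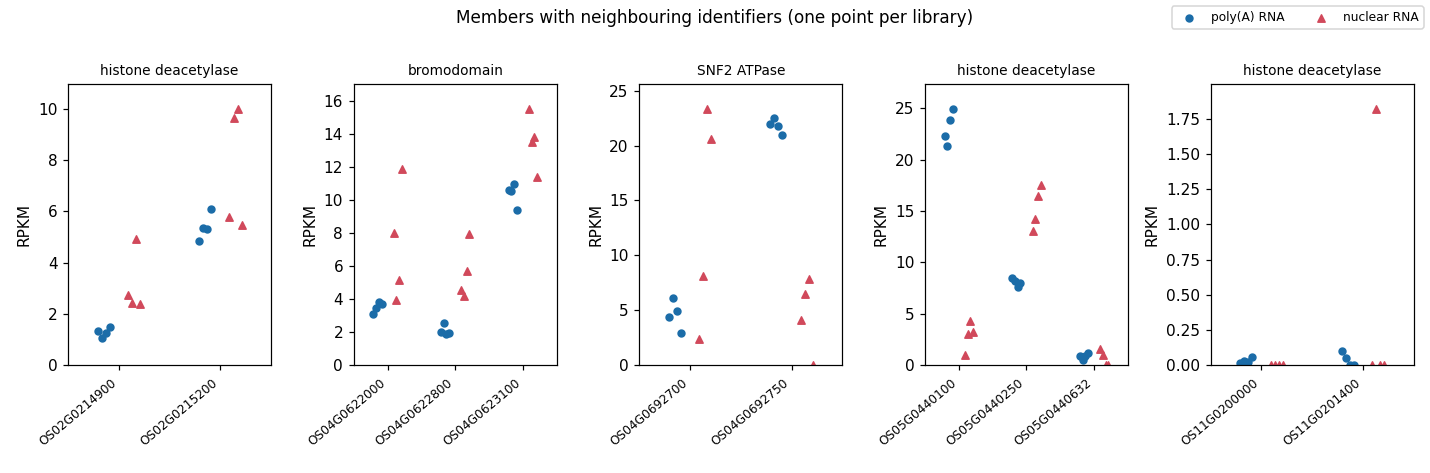
RPKM of members with neighbouring identifiers, 1 panel per group on its own scale; circles are poly(A) libraries and triangles nuclear libraries. OS05G0440100 falls from 21.4 to 24.9 RPKM to between 0.995 and 4.28 RPKM while its neighbour OS05G0440250 rises from 7.65 to 8.46 RPKM to between 13.1 and 17.6 RPKM.

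The order of the members by level changed between the pools, with Spearman's rho 0.56 between mean poly(A) and mean nuclear RPKM over the 53 tested genes. The highest 4 in poly(A) RNA were OS01G0367900 (47.2 ± 1.29 RPKM), OS02G0601800 (43.3 ± 0.568), OS07G0660200 (39.5 ± 1.31) and HDAC1 (35.6 ± 1.07). In nuclear RNA they were OS02G0601800 (102.8 ± 13.1 RPKM), OS08G0192800 (82.1 ± 9.74), OS07G0660200 (57.6 ± 6.38) and OS07G0497100 (42.2 ± 6.06). The log2 difference had a rho of −0.37 with the poly(A) level among members and −0.49 among all tested genes, which share the poly(A) level in both measures. With gene length, as recovered from the RPKM, rho was 0.07 among members and 0.20 among all tested genes. The median length was 2153 nt for members and 1497 nt for all tested genes.

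Precision was set mainly by the nuclear libraries. The median CV between libraries was 6.9% in poly(A) and 27.3% in nuclear RNA, where counting of reads alone gives a median of 4.69% and 17.7%. A tested member rested on a median of 1875 poly(A) reads and 132 nuclear reads over the 4 libraries of a pool.

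Other chromatin factors outside the membership rule were counted for comparison: histone chaperones, nucleosome assembly proteins, FACT subunits, methyl-CpG-binding proteins, DNA glycosylases of the DEMETER type, HMG proteins, Sin3-type proteins, RuvB-like and YEATS proteins and actin-related proteins. Of 59 such genes 49 were tested, of which 12 (24.5%) were higher and 24 (49%) lower in nuclear RNA, beside 33.1% and 30.0% of all tested genes, with a median log2 difference of −0.61 that kept its sign under every scaling tried, although the split was 16 higher and 18 lower after either rescaling, where the shares over all genes shifted too. The search words also took in genes with other roles, among them subunits of the ARP2/3 actin complex and of the H/ACA snoRNP. The genes described as subunits of these complexes were all called lower in nuclear RNA. The lower count and the median therefore rest in part on genes that are not chromatin factors, and neither was computed without them. Nucleosome assembly protein genes OS02G0576700 and OS05G0539700, which carry histones to and from DNA, fell from 138.5 to 35.9 RPKM and from 139.0 to 42.1 RPKM (differences −1.94 ± 0.16 and −1.71 ± 0.14, adjusted p = 1.23e-05 and 1.46e-05). The DEMETER-like gene OS05G0446000, for a glycosylase that removes methylated cytosine, was at a mean of 1.00 RPKM in poly(A) RNA, just below the filter, and 5.96 RPKM in nuclear RNA (1.79 ± 0.16, adjusted p = 2.09e-05), and entered the test through the nuclear pool alone. OS08G0404400, annotated as the FACT subunit SPT16, rose from 3.52 to 26.3 RPKM (2.58 ± 0.15, adjusted p = 2.92e-06), and OS01G0184900, annotated as its partner SSRP1, fell from 39.2 to 17.8 RPKM (−1.12 ± 0.17, adjusted p = 0.000443). The other gene annotated as SPT16, OS08G0404350 (0.68 ± 0.30, adjusted p = 0.0755), and the other annotated as SSRP1, OS05G0182600 (−0.23 ± 0.31, adjusted p = 0.543), overlapped between the pools and were not called. These 7 genes were named after their values were seen. Recovered lengths were 1055 nt for OS08G0404400 and 663 nt for OS08G0404350, and whether they span the whole genes was not examined.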

How the data were processed

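Poly(A) RNA and nuclear RNA of rice root tips were compared, with 4 libraries per pool. The authors deposited RPKM per gene for every library. The submitters' processing notes name the IRGSP-1.0 genome and the tools TopHat2 2.1.1, CASAVA 1.8 and FastQC. How reads were counted, with which strand setting and against which gene models, is not given in the sources used here. That each pool had 4 biological replicates is the series' own statement, on which the p-values rest.

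Of 35694 lines, 30 repeated an identifier with equal values and were counted once, which left 35664 genes, 2473 of them at 0 in all libraries. RPKM of the other 33191 genes were whole multiples of the value of 1 read, within 0.01 of a read in every library, so reads, depths and the gene lengths used by the counter were recovered. Whether a recovered length spans the whole gene was not examined for any gene. Intervals and bounds cover counting error only.

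Pools were compared with limma 3.58.1 (lmFit, eBayes) in R 4.3.3 on log2(RPKM + 1), two-sided, for genes with a mean of at least 1 RPKM in either pool, with Benjamini-Hochberg adjustment over 26928 genes. The fit was tested on simulated data. No list was tested as a set. Alternatives were other pseudocounts, filters and scalings, voom on recovered reads, poly(A) libraries thinned to the nuclear depth, removal of the trend with gene length, the replicate number as a block, and leaving out each library. Members and lists were chosen with earlier results of these data known. Values in every library are given, within each class, for up to 4 tested members of lowest adjusted p in each direction, for the highest member in each pool and for members with the symbol of a gene of known function; other members are given by range and count. HAG704 and ENL1 come under the first part of this rule, and OS12G0179800, OS04G0603800, OS04G0692700 and OS05G0150300 were added after their values were seen. Of the members, 8 share a locus of the older MSU annotation with another listed gene. The reference table held no identifier of this annotation, so coordinates and sequences were not analysed here.

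Library numbers did not pair the pools: deviations of same-numbered libraries from their pool means correlated at −0.0048, 0.0092, −0.0476 and −0.042.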

Additional observations from a re-analysis of the deposited data

Results flagged for a closer look

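Among 105 sets of 4 libraries (a tested member in 1 pool, not constant), 9 had 1 library whose gap to the nearest other exceeded 0.829 of the range, where chance gives about 1 in 20. Of the 6 in the poly(A) pool, 5 were in library 4. There OS02G0250300 was at 6.785 RPKM against 7.302 to 7.338 in the others, OS03G0130800 at 9.813 against 11.95 to 12.18, OS07G0497100 at 6.97 against 8.645 to 8.896 and OS12G0176700 at 4.556 against 5.506 to 5.545, all lower, while OS07G0565300 was higher, at 3.097 against 2.807 to 2.844. The summed level of all members was also lowest in that library, at 639.2 RPKM against 659.8 to 669.8. OS02G0601800 stood at 44.19 RPKM in poly(A) library 1 against 42.97 to 43.12. The 3 sets in the nuclear pool all concerned library 3. HDAC3 (OS02G0214900) was at 4.906 RPKM there against 2.399 to 2.74, OS10G0457700 at 13 against 7.224 to 8.171, and OS09G0550000 at 11.98 against 16.27 to 16.59. Leaving out poly(A) library 4 gave a median log2 difference of the members of 0.28, and leaving out nuclear library 3 gave 0.25, against 0.26 with all libraries.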

How the results depend on the processing

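Of the 35 called members, 26 (17 higher, 9 lower) kept their direction and call under every alternative that tested them. The call was lost under 1 or more by 9, and 0 reversed. There were 19 alternatives. OS01G0648700 and HDAC3, both among the 26, were tested under 18, as they missed the minimum of 5 RPKM. The counts of members called stayed within 1.5 times of 20 higher and 15 lower. Leaving out 1 library gave 18 to 22 higher and 14 to 17 lower and a median log2 difference of 0.21 to 0.28. Over all 26928 tested genes these fits called 7877 to 9583 higher and 7020 to 8383 lower, beside 8909 and 8069 with all libraries. The replicate number as a block, which does not pair these libraries, gave 18 higher and 15 lower and a median of 0.26, and ended the calls of OS04G0622000 and OS04G0623100. Over all tested genes the block gave 8391 higher and 7628 lower. The depth of the nuclear libraries limits the genes with few reads, and the cause of the changes below was not tested.

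After rescaling to an equal sum, and to an equal sum without the 100 highest genes, the median log2 difference was 0.46 and 0.49 for members, 0.14 and 0.18 for DNA methyltransferases, −0.19 and −0.15 for deacetylases, 0.66 and 0.70 for SNF2 genes, 1.00 and 1.03 for the SWIRM gene OS12G0176700, 0.90 and 0.93 for bromodomain genes and −0.36 and −0.32 for the related chromatin factors. Median centring gave 0.27 for SNF2 genes, 0.62 for the SWIRM gene and −0.76 for the related factors. Quantile normalization gave −0.00 for members, 0.24 for SNF2 genes and 0.58 for the SWIRM gene. Taking off the length trend gave 0.21 for SNF2 genes and 0.53 for the SWIRM gene, which was at 0.87 with a pseudocount of 0.1, at 0.90 with voom and at 0.69 with thinned poly(A) libraries. With a minimum of 5 RPKM the DNA methyltransferases stood at −0.48, over 2 genes.

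The calls of OS02G0114000 and OS08G0289400 were lost under both rescalings, those of MET1B and OS07G0434500 under both rescalings and others, that of ENL1 with a pseudocount of 0.1, that of HDAC10 under voom and 1 rescaling, and that of OS07G0660200 without the length trend.

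Only uncalled members changed sign. Both rescalings gave 0.14 and 0.18 for DRM2, 0.15 and 0.18 for OS05G0150300, 0.23 and 0.27 for OS06G0355500 and 0.17 and 0.21 for OS08G0109500. OS04G0603800 turned to −0.00 (quantile) and −0.16 (thinned), OS06G0355500 to 0.07 (voom), OS07G0164100 to −0.12 (median centring), −0.01 (quantile) and −0.06 (length), OS07G0565300 to −0.01 (quantile), OS09G0515100 to −0.13 (median centring), −0.04 (quantile) and −0.63 (length), OS10G0457700 to −0.24 (length) and OS12G0508266 to 0.15 (length). Leaving out 1 library gave −0.19 to 0.56 for OS04G0603800, −0.23 to 0.04 for OS05G0150300, −0.15 to 0.23 for OS06G0355500, −0.13 to 0.21 for OS07G0164100, −0.10 to 0.14 for OS09G0515100 and −0.77 to 0.07 for OS12G0508266, so these 6 had no settled sign.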
